A study of Mus musculus with 30 samples.

Results

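The Oscillospiraceae are a family of anaerobic gut bacteria, followed here in mouse stool through 113 sequence variants, out of 949 bacterial variants with reads. A variant is a distinct read of V4, a stretch of the bacterial 16S rRNA marker gene, and the members were the variants whose deposited taxon name gave this family and which had reads in any library. All 113 were placed in the order Oscillospirales by that name. Of them, 58 of 483 bacterial variants had reads in libraries from weaning or the co-housed mice, and 55 of 466 in those from re-separated mice. None had reads in both sets of libraries, so variants were compared within a set. Genera were compared across the sets too, but there a time step cannot be told apart from the change of set. A variant is called here by its genus label and its row in the table, since the table pairs no sequence with it.

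The study used female Gpr15l-/- mice (KO), which lack a peptide that epithelial cells secrete as the ligand of the lymphocyte receptor GPR15, and wild-type mice (WT). The first stool came at weaning, when mice were about 4 weeks old. The next came after 4 to 5 weeks in cages of 2 to 7 mice that held both genotypes (co-housing), and the last when the genotypes had lived apart for 6 more weeks (re-separation). Mice in a shared cage eat each other's faeces, so the comparison addresses whether KO and WT bacteria still differ once cages are shared and then parted. After co-housing the mice were also 4 to 5 weeks older than at weaning, and no group of that age had stayed apart. A change between these times therefore cannot be assigned to co-housing or to age. There were 6 groups of 5 libraries. Libraries 1 to 5 were KO at weaning, 11 to 15 co-housed KO and 21 to 25 re-separated KO mice, and WT libraries were 6 to 10, 16 to 20 and 26 to 30 in the same order. No strain, cage or litter is named in the labels, and libraries of the same mouse are not linked. The p-values therefore describe spread among these libraries and no more. Nothing in bacterial reads tests the Gpr15l genotype.

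Members of this family live on plant fibre, mucin sugars and the products of other bacteria in the large bowel. Several of its cultured genera, among them Oscillibacter and Intestinimonas, form butyrate, a short-chain fatty acid that colon cells burn as fuel. The family belongs to the late-arriving part of the gut community, which expands as solid food replaces milk. Its close relatives in the gut are the Ruminococcaceae, of the same order, and the Lachnospiraceae.

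Library depth ran from 10560 to 52398 reads in libraries 1 to 20 and from 39735 to 73776 in libraries 21 to 30. Shares are percentages of all reads of a library other than mitochondrial ones. The floor for 0 reads, 3 counts per library, came to a mean share of 0.0157% in the KO weaning group and 0.0121% in the WT weaning group, for counting error only. Libraries 1, 5, 11 and 19 were left out together in an alternative taken from an earlier account of these data. Library 1 lay at a mean Bray-Curtis distance, over all bacterial variants, of 0.749 from the other 4 of its group, which lay 0.458 from each other. The same pair of distances was 0.543 and 0.388 for library 19, 0.547 and 0.479 for library 11, and 0.606 and 0.554 for library 5. Other libraries lay about as far out as library 5 or 11 by this measure, at 0.343 and 0.297 for library 9, 0.487 and 0.425 for library 16, and 0.349 and 0.302 for library 29. Leaving out the 4 libraries is therefore not a removal of the 4 most distant ones, and each of the 30 libraries was also left out singly.

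The family was a small part of stool at weaning and a larger part after co-housing, when the mice were also older. In WT mice at weaning it made up 0.809%, 1.12%, 1.11%, 0.267% and 0.384% of reads in libraries 6 to 10, a mean of 0.738% ± 0.399 (SD, n = 5). In WT mice after co-housing it made up 9.43%, 9.67%, 6.97%, 1.95% and 9.22% in libraries 16 to 20, a mean of 7.45% ± 3.26 (SD, n = 5). Every co-housed WT library lay above every WT library from weaning, and library 19 was the lowest of them. Without library 19 the co-housed mean was 8.82% ± 1.25 (SD, n = 4). The family rose between these times in WT mice, by 2.61 ± 0.67 on the log2 scale (edgeR's quasi-likelihood test, estimate ± SE, adjusted p = 0.00585 over 35 families). Here and below, the SE of an edgeR estimate was derived from its F statistic. In that comparison 13 of 35 families passed the threshold of 0.05, or 37.1%.

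KO libraries were more uneven at weaning. In libraries 1 to 5 the family made up 0.0757%, 0.930%, 5.09%, 0.456% and 4.18% of reads, a mean of 2.15% ± 2.31 (SD, n = 5), with libraries 3 and 5 far above the other 3. In co-housed KO libraries 11 to 15 it made up 2.65%, 9.62%, 4.07%, 5.16% and 4.07%, a mean of 5.12% ± 2.67 (SD, n = 5). The groups overlapped, since libraries 3 and 5 lay above the lowest co-housed library. The estimate was 1.23 ± 0.64 on the log2 scale and did not pass (edgeR, adjusted p = 0.129), in a comparison that called 8 of 35 families (22.9%). The change in KO mice minus that in WT mice was -1.38 (edgeR, adjusted p = 0.285), so a difference between the genotypes in the size of the change was not shown. That comparison called 1 of 35 families (2.86%).

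**Figure D1:**
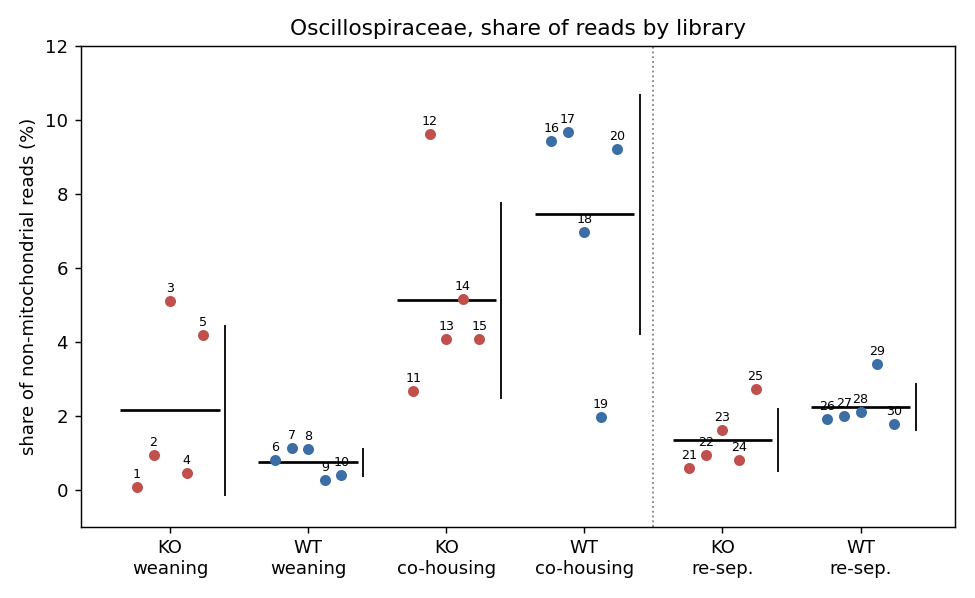
Share of non-mitochondrial reads (%, linear axis) assigned to the Oscillospiraceae in each library, with library numbers above the points, red for KO and blue for WT. Horizontal lines are group means and vertical lines to their right span 1 SD either side (n = 5); the dotted line parts the library sets. The other 4 co-housed WT libraries sit between 6.97% and 9.67%, while library 19 sits at 1.95% and the WT weaning libraries at or below 1.12%.

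The genotypes were not separated at any of the 3 times by the family as a whole. At weaning KO minus WT was 0.62 ± 0.63 on the log2 scale (edgeR, adjusted p = 0.453), while 8 of 35 families passed (22.9%). After co-housing the estimate was -0.76 (adjusted p = 0.568) and after re-separation -0.59 (adjusted p = 0.874), and in each of these comparisons 0 of 35 families passed (0%), with 1 family at an unadjusted p under 0.05 in each by edgeR. After re-separation KO libraries 21 to 25 held 0.588%, 0.940%, 1.62%, 0.799% and 2.73%, a mean of 1.34% ± 0.869 (SD, n = 5). WT libraries 26 to 30 held 1.91%, 1.99%, 2.09%, 3.39% and 1.78%, a mean of 2.23% ± 0.660 (SD, n = 5). Of the KO libraries, 4 lay below the lowest WT library, and library 25 lay above 4 of the 5 WT libraries.

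From co-housing to re-separation the fitted differences were -1.33 in KO mice (adjusted p = 0.110) and -1.51 in WT mice (adjusted p = 0.184), and neither passed with edgeR on all 30 libraries. Without libraries 1, 5, 11 and 19 both passed, at -1.51 (adjusted p = 0.0272) and -1.74 (adjusted p = 0.0177). These comparisons called 7 of 35 families in KO mice (20%) and 2 of 35 in WT mice (5.71%). From weaning to re-separation the fitted differences were -0.11 (adjusted p = 0.919) in KO mice and 1.10 (adjusted p = 0.178) in WT mice, where 8 and 5 of 35 families passed (22.9% and 14.3%). Across these steps the change in KO minus that in WT was 0.17 (adjusted p = 1.00; 0 of 35 families, 0%, with 2 at an unadjusted p under 0.05) and -1.21 (adjusted p = 0.335; 6 of 35 families, 17.1%). In all of these steps the time and the set of libraries changed together.

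Related families also rose in WT mice. Between weaning and co-housing, Lachnospiraceae rose by 2.04 and Ruminococcaceae by 2.29 on the log2 scale (edgeR, adjusted p = 0.00585 and 0.00678), while the estimate for Butyricicoccaceae was 1.93 (adjusted p = 0.124). In KO mice Lachnospiraceae rose by 1.51 (adjusted p = 0.0344), and the estimate for Ruminococcaceae was 0.25 (adjusted p = 0.788). The number of Oscillospiraceae reads per read of Lachnospiraceae was 0.278 ± 0.140 in weaned and 0.334 ± 0.0649 in co-housed WT mice, and 0.223 ± 0.156 and 0.230 ± 0.130 in KO mice (SD, n = 5). In each genotype the means of this ratio at the 2 times differed by less than 1 SD of either group, a description with no test. Per read of Ruminococcaceae the number was 4.66 ± 2.60 and 5.41 ± 2.08 in WT mice (SD, n = 5). In KO mice it was 2.32 ± 1.15 at weaning and 6.44 ± 5.59 after co-housing (SD, n = 5), with medians of 2.32 and 4.65. This ratio was not tested either.

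Mitochondrial reads, which come from host or food cells, had their highest group means after co-housing too. They made up 0.0687% to 0.829% of reads in co-housed WT libraries and 0.0392% to 0.661% in co-housed KO libraries, against 0% to 0.0649% in WT libraries at weaning. At weaning 4 KO libraries held 0.0151% to 0.0709% and library 5 held 0.653%. Library 19 was lowest of its group in family share and in mitochondrial reads, and so was library 11 of its group. Their part in the result was not tested.

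There were 8 genus labels that made up the family, out of 102 over all bacteria. In weaning and co-housing libraries, variants labelled uncultured held 38.3% of family reads in 18 variants. Colidextribacter, known from few cultured strains, held 29.4% in 10 variants, Oscillibacter 17.0% in 12, and variants with no genus label 11.2% in 12. The other 4 labels were rare. NK4A214_group and UCG-005 had 2 variants each with 1.04% and 1.34% of family reads. Oscillospira, a large gut bacterium seen in herbivores, had 1 variant with 0.985%, and Intestinimonas had 1 with 0.698%. In the re-separation libraries Colidextribacter led with 38.4% of family reads in 12 variants, followed by uncultured with 22.1% in 17, Oscillibacter with 19.2% in 10 and no genus with 10.4% in 8. NK4A214_group held 4.47% and Intestinimonas 3.33% there, UCG-005 held 1.72% and Oscillospira 0.413%.

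Of the 8 genera, 5 rose in WT mice from weaning to co-housing, in a comparison that called 22 of 76 genera (28.9%). The median log2 change of the 8 was 2.74 as fitted, and 2.48 with genera at 0 in a group set to their bound, beside 1.15 and 0.90 over all 76. Of the 6.71 percentage points by which the mean family share was higher, uncultured variants made up 36.2%, Colidextribacter 26.5%, Oscillibacter 19.1% and variants with no genus 13.7%. These parts are differences of mean shares with no test, and Colidextribacter did not pass.

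Oscillibacter, a genus of butyrate and valerate formers, held 0.128%, 0.0702%, 0.216%, 0.0593% and 0.0397% in WT libraries 6 to 10 and 1.41%, 2.09%, 1.47%, 0.314% and 1.64% in libraries 16 to 20. The groups did not overlap, and library 19 was again the lowest after co-housing. It rose by 2.69 ± 0.91 on the log2 scale (edgeR, adjusted p = 0.0202). That call was lost without library 7 and without library 10, and with DESeq2's size factors, centred log-ratios and the library set alone.

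Uncultured variants held 0.268%, 0.345%, 0.202%, 0.0297% and 0.143% in WT libraries at weaning and 4.00%, 2.86%, 2.32%, 0.560% and 3.41% after co-housing, with no overlap. They rose by 2.78 ± 0.90 (edgeR, adjusted p = 0.0146), a call lost with DESeq2's size factors (adjusted p = 0.0521), centred log-ratios (0.127) and the library set alone (0.0817). Variants with no genus had reads in 1 WT library at weaning, library 8, at 0.143%. After co-housing they held 1.26%, 1.55%, 0.870%, 0.0687% and 0.978%, so library 19 lay below library 8, and the label rose by 4.07 ± 1.28 (adjusted p = 0.0139).

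Intestinimonas, a genus that makes butyrate from amino acids and sugars, had 0 reads in all 10 weaning libraries. It then held 0.108%, 0.113% and 0.136% in WT libraries 17, 18 and 20 and 0 reads in libraries 16 and 19. It was at least 5.92-fold higher after co-housing than the floor at weaning (edgeR, adjusted p = 0.0139), and at least 4.57-fold without library 20. Oscillospira also had 0 reads at weaning and 0.0680%, 0.0704%, 0.0789%, 0% and 0.0987% in libraries 16 to 20, at least 5.23-fold above the floor (adjusted p = 0.0192) and at least 4.50-fold without library 20. Both calls were lost with centred log-ratios (adjusted p = 0.281 and 0.0898), that of Intestinimonas also with limma-voom (0.0832) and that of Oscillospira with the DESeq2 test (0.0754).

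Colidextribacter, the second label by reads, held 0.323%, 0.600%, 0.483%, 0.148% and 0.175% in WT libraries at weaning and 2.55%, 2.61%, 1.94%, 0.913% and 2.63% after co-housing, and these groups did not overlap. The estimate was 1.70 ± 0.82 on the log2 scale (edgeR, adjusted p = 0.0907). By library size alone, with no scaling factor, the median of all genera was higher by 1.15 and 6 of the 8 passed. With DESeq2's size factors the median was lower by 0.41 and 3 of the 8 passed, so the number called depends on the scaling while all 8 estimates were above 0 with the TMMwsp factors used here. The estimates of Intestinimonas and Oscillospira, with 0 reads in WT mice at weaning, could not be below 0.

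As a part of the family's own reads, Colidextribacter made up 47.7% ± 6.70 in WT mice at weaning and 31.4% ± 8.59 after co-housing (SD, n = 5). Uncultured variants made up 26.1% ± 11.0 and 34.2% ± 5.68. In KO mice Colidextribacter made up 27.7% ± 15.7 and 28.1% ± 7.41, and uncultured variants 30.7% ± 21.3 and 43.5% ± 17.8. After re-separation Colidextribacter was the largest label in both genotypes, at 42.3% ± 12.4 in KO and 38.8% ± 4.64 in WT mice. These are descriptions with no test.

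In KO mice 4 of the 8 genera passed from weaning to co-housing, where 23 of 76 genera were called (30.3%), and these were the 4 rare labels. NK4A214_group had 0 reads in KO libraries 1 to 5 and 0.0432%, 0%, 0.0194%, 0.0676% and 0.0713% in libraries 11 to 15. That is at least 2.58-fold above the floor (edgeR, adjusted p = 0.00251), and at least 2.08-fold without library 15. Oscillospira had 0 reads at weaning and 0.170%, 0.0580% and 0.0648% in libraries 13, 14 and 15, at least 3.74-fold above the floor (adjusted p = 0.00905), and at least 1.96-fold without library 13. Intestinimonas and UCG-005 had reads in a single co-housed KO library, library 15, at 0.107% and 0.0713%. Their calls (adjusted p = 0.0372 each) were lost without that library, where no KO library of either time held them, and each was also lost without library 1, 2, 3 or 4. The 4 calls became 2 without library 1, 2, 4 or 15. The NK4A214_group call was lost in a fit of the 2 KO groups alone (adjusted p = 0.0896), and that of Oscillospira with centred log-ratios (0.142).

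The abundant genera of KO mice did not pass between these times. Uncultured variants held 0%, 0.549%, 1.79%, 0.157% and 1.03% in libraries 1 to 5 and 0.840%, 7.14%, 1.32%, 2.24% and 1.46% in libraries 11 to 15 (estimate 1.95 ± 0.87, adjusted p = 0.0799). Library 12 stood far above the rest. Colidextribacter (0.97 ± 0.81, adjusted p = 0.409), Oscillibacter (1.02 ± 0.86, adjusted p = 0.418) and variants with no genus (0.59 ± 1.13, adjusted p = 0.744) had smaller estimates than in WT mice. The differences between the genotypes in these changes did not pass (adjusted p = 0.793, 0.395 and 0.195). The median log2 change over the 8 was 3.53 as fitted and 1.00 at the bounds, beside 0.65 and 0.30 over all 76. The 4 rare labels were at 0 in the KO weaning libraries, where a fitted change has no upper limit and cannot be below 0.

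Of the rare labels, 2 separated the genotypes at weaning, in a comparison that called 18 of 76 genera (23.7%). NK4A214_group held 0.0553%, 0.102%, 0%, 0.0297% and 0% in WT libraries 6 to 10 and 0 reads in the 5 KO libraries. It was at least 2.39-fold higher in WT (edgeR, adjusted p = 0.00167), and at least 1.36-fold without library 7. UCG-005 held 0.0340%, 0%, 0.0668%, 0% and 0.0265% in the WT libraries and 0 reads in KO, at least 1.63-fold higher (adjusted p = 0.00860). Without library 8 its mean lay at or under the floor and gives no fold. These levels are near the floor, so the statement covers 3 of 5 WT libraries for each label. In a fit of the 2 weaning groups alone neither label was tested, since both fell under the filter of 10 reads in 3 libraries. The UCG-005 call was lost with centred log-ratios (adjusted p = 0.0580).

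After co-housing 0 of the 8 genera separated the genotypes with edgeR, where 1 of 76 passed (1.32%) and 1 of the 8 had an unadjusted p under 0.05. That genus was UCG-005, with 0.0163%, 0.329%, 0.108%, 0.0540% and 0.223% in WT libraries 16 to 20 and reads in library 15 alone among the KO libraries (estimate -3.20 ± 1.49, adjusted p = 0.300). Without library 15, 2 of the 8 passed. After re-separation 0 of the 8 and 0 of all 76 passed (0%) with edgeR. No member had an unadjusted p under 0.05 there, and 6 of all 76 did. UCG-005 had 0%, 0%, 0.0159%, 0.0204% and 0.0178% in KO libraries and 0.0421%, 0.0458%, 0.101%, 0.0120% and 0.0655% in WT libraries (estimate -2.14 ± 1.42, adjusted p = 0.652).

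The change of the genotype difference passed for NK4A214_group. From weaning to co-housing it was 6.38 ± 2.07 on the log2 scale (edgeR, adjusted p = 0.0443), in a comparison that called 5 of 76 genera (6.58%). The 5 co-housed WT libraries held 0.120%, 0.0517%, 0.0762%, 0.0442% and 0.0987% of this label, so reads were then found in 4 of 5 KO and 5 of 5 WT libraries. The call was lost without any of the libraries 1, 2, 3, 5, 6, 7, 9, 11, 14, 15, 16, 17, 18 or 20. From weaning to re-separation it was 7.20 ± 2.09 (adjusted p = 0.0152; 14 of 76 genera, 18.4%), a call lost with limma-voom (0.170) and centred log-ratios (0.238). From co-housing to re-separation 0 of the 8 and 0 of 76 passed with edgeR (0%), with 0 and 5 at an unadjusted p under 0.05. The sizes of 6.38 and 7.20 rest on KO libraries at 0 at weaning and are not measures of a fold.

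Between co-housing and re-separation, uncultured variants fell in KO mice, by 2.78 ± 0.89 on the log2 scale (edgeR, adjusted p = 0.0209), to 0.0366%, 0.143%, 0.404%, 0.234% and 0.582% in libraries 21 to 25. Every one of these lay below the lowest co-housed KO library. The call was lost without library 12, the highest co-housed library, and without library 21 or 22. It was the 1 member among 13 of 76 genera called (17.1%). In WT mice 0 of the 8 and 1 of 76 passed (1.32%), and 1 of the 8 had an unadjusted p under 0.05 by edgeR. From weaning to re-separation 3 of the 8 passed in KO mice (21 of 76 called, 27.6%), namely Intestinimonas, NK4A214_group and UCG-005, and 1 passed in WT mice, Intestinimonas (9 of 76, 11.8%). The mean of UCG-005 in re-separated KO libraries, 0.0108%, lay under the weaning floor of 0.0157%, so it gives no fold, and its call was lost in 7 of 9 other refits. Intestinimonas, with 0 reads at weaning, held 0.0588%, 0.0377%, 0.0389%, 0.0330% and 0.192% in KO libraries 21 to 25, at least 4.61-fold above the floor and at least 2.69-fold without library 25. The WT call was lost without any of the libraries 6 to 10 or without library 26, and that of UCG-005 in KO mice without any of the libraries 1 to 4, 24 or 25.

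**Figure D2:**
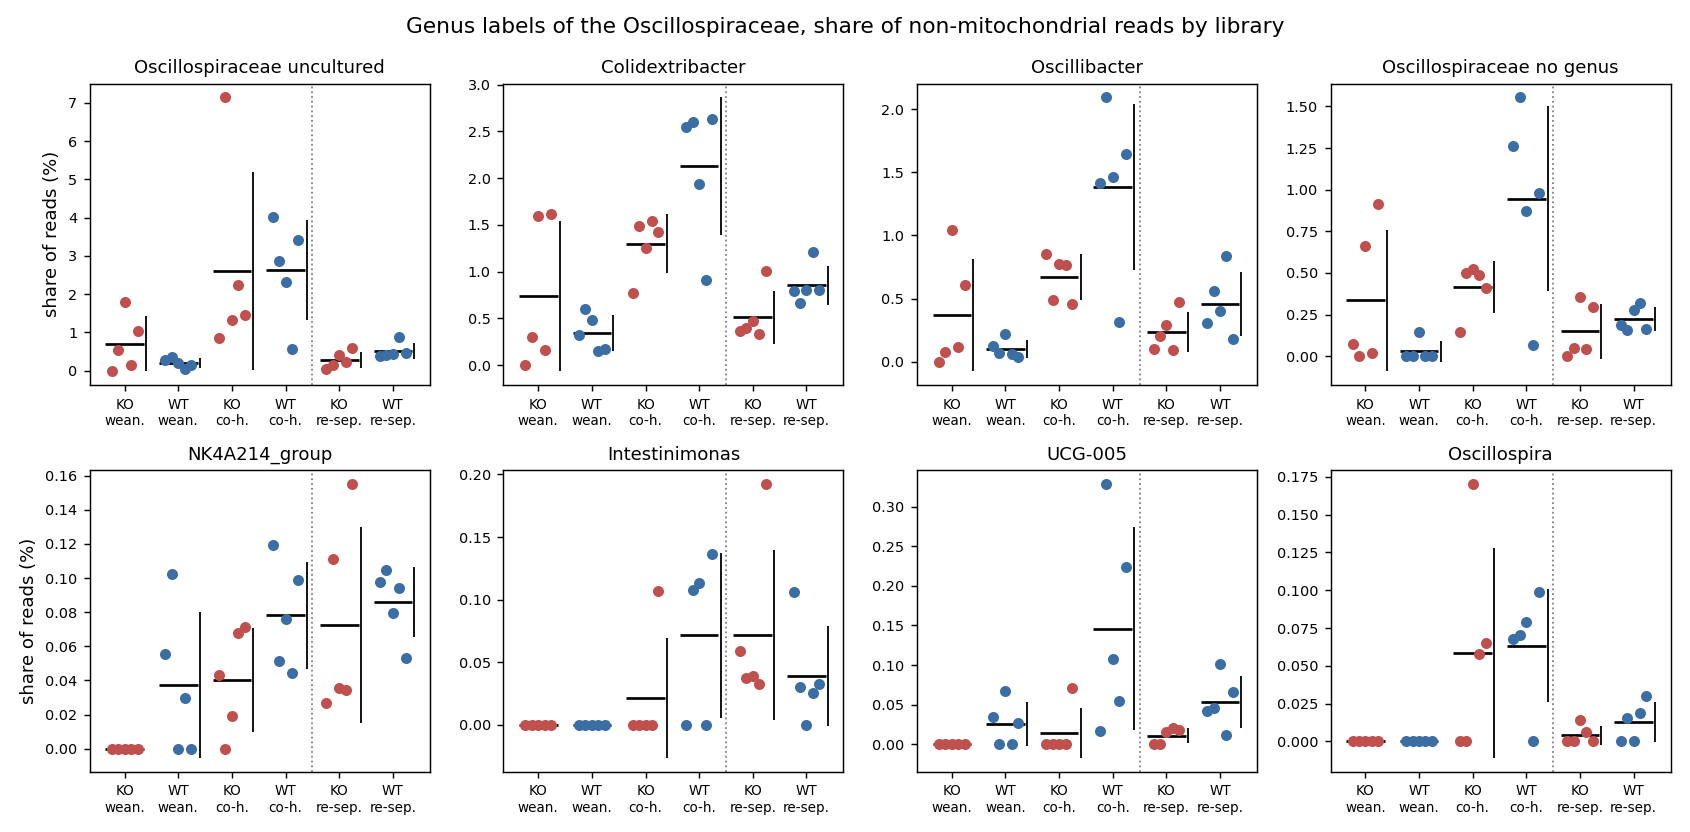
Share of non-mitochondrial reads (%, linear axes with a scale of their own in each panel) for the 8 genus labels in each library, red for KO and blue for WT, with group means as horizontal lines and 1 SD either side as vertical lines (n = 5). The dotted line parts the library sets. Intestinimonas and Oscillospira sit at 0 in all 10 weaning libraries, and NK4A214_group and UCG-005 at 0 in the 5 KO weaning libraries.

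Individual variants showed how the family was built up. Of the 58 variants of the weaning and co-housing set, 45 passed the filter of 10 reads in 3 libraries. The 10 with the largest mean shares held 58.2% of family reads. None had reads in all 20 libraries, 13 had reads in 10 or more, and 9 in 1 library. The most widespread, Colidextribacter row 444, had reads in 19, missing from library 1. It held 0.187%, 0.230%, 0.216%, 0.0593% and 0.101% in WT libraries at weaning and 0.280%, 0.329%, 0.255%, 0.250% and 0.302% after co-housing (estimate 0.38 ± 1.43 on the log2 scale, adjusted p = 0.859).

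Row 444 led the family in 4 of the 5 WT weaning libraries, with 19.4% to 26.2% of family reads. After co-housing Colidextribacter row 437 led in 4 of 5 WT libraries, with 8.05% to 20.4%. Row 437 held 0%, 0.179%, 0.101%, 0.0890% and 0.0265% in WT libraries 6 to 10 and 0.759%, 1.02%, 0.752%, 0.398% and 0.775% in libraries 16 to 20, without overlap. It did not pass (estimate 2.78 ± 1.48, adjusted p = 0.189). The uncultured variant of row 458, the first by mean share, owed its place to library 12, where it held 5.62% of reads, or 58.4% of the family, against 0.153% to 0.304% in the other 4 co-housed KO libraries. Library 1 held a single variant of the family, row 511 with no genus label and 16 reads, which was in no other library.

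The next variants by mean share were found at both times and in both genotypes. Uncultured row 495, the third, had reads in 18 libraries and held up to 0.889% after co-housing and up to 0.793% at weaning. Colidextribacter row 435 had reads in 14 libraries, and Oscillibacter rows 472 and 478 in 14 and 15. These variants had adjusted p-values of 0.210 or more by edgeR between weaning and co-housing in WT mice and between the genotypes at weaning.

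**Figure D3:**
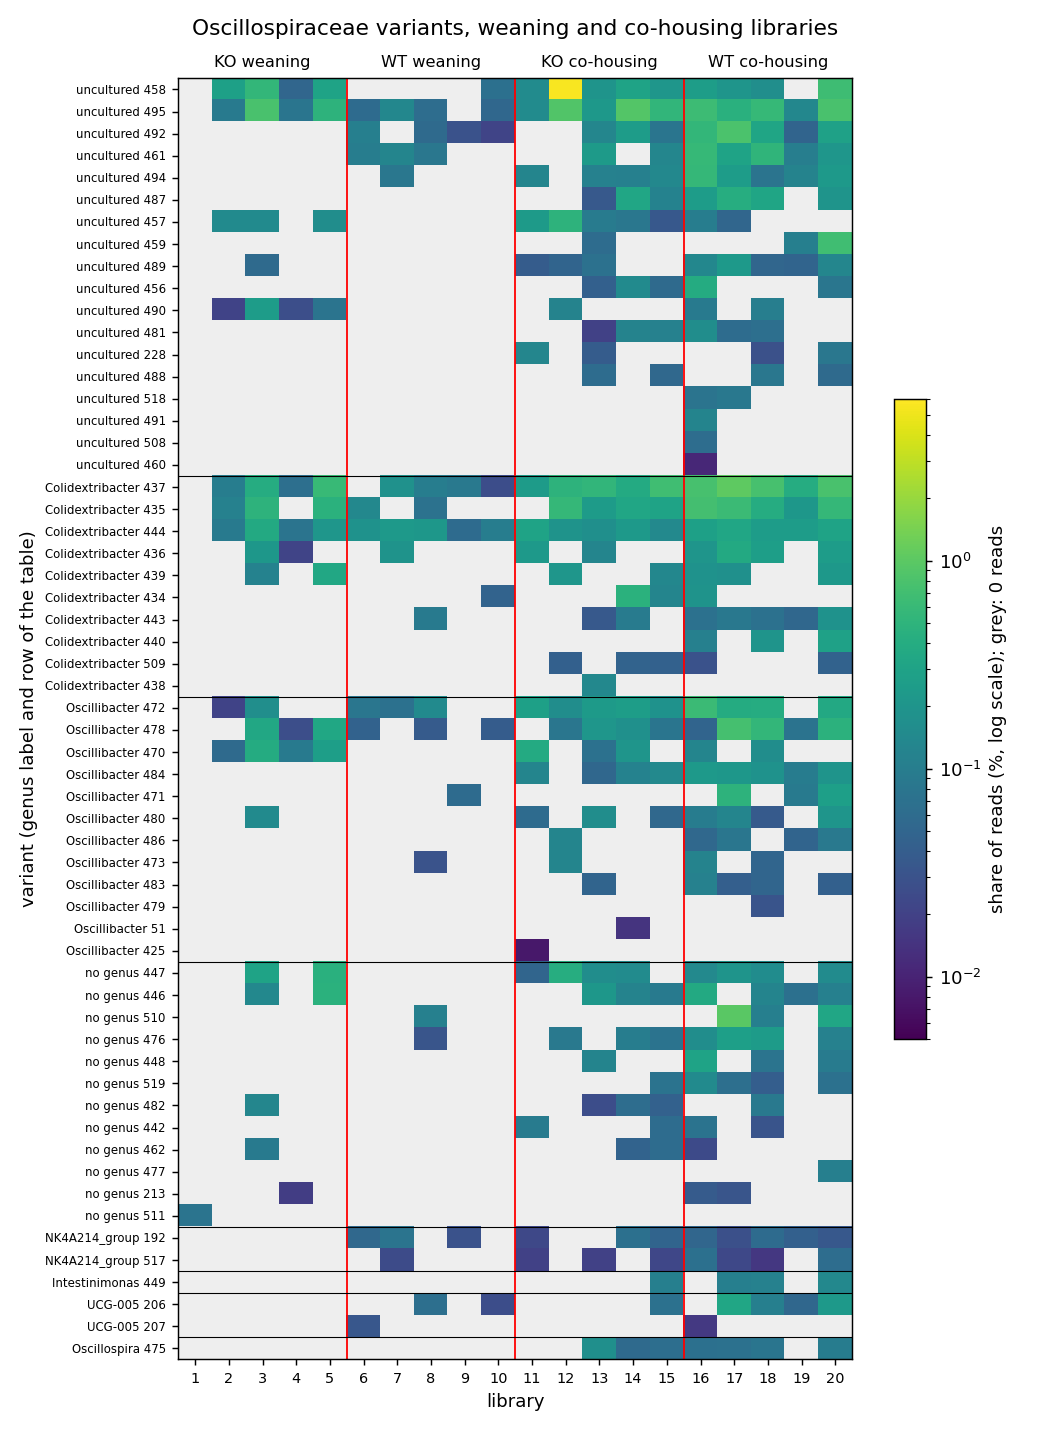
Share of reads (%, logarithmic colour scale, grey for 0 reads) of the 58 Oscillospiraceae variants in libraries 1 to 20, in rows grouped by genus label and ordered by mean share, with red lines between groups and black lines between genera. Weaning libraries hold 33 of the variants and co-housing libraries 57, and the brightest cell is uncultured row 458 in library 12 at 5.62%.

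The number of variants per library was higher after co-housing. Scaled to 10491 reads, the smallest library without its mitochondrial reads, the expected number was 8.74 ± 2.86 in weaned and 33.8 ± 10.1 in co-housed WT mice, and 9.72 ± 6.15 and 24.2 ± 7.11 in KO mice (SD, n = 5). WT libraries ran from 4.97 to 12.9 at weaning and from 17.0 to 43.5 after co-housing, so they did not overlap. KO libraries ran from 1.00 to 18.0 and from 16.0 to 30.9, so library 3 lay above the lowest co-housed library. After re-separation the number was 22.2 ± 9.58 in KO and 32.6 ± 5.56 in WT mice.

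The family also had more reads after co-housing, 398 to 3467 per WT library against 54 to 582. The number of variants was therefore computed among 100 reads of the family, an alternative chosen after the data were seen. It was 9.71 ± 2.17 in WT mice at weaning (n = 4, library 9 having too few reads) and 26.4 ± 5.92 after co-housing (n = 5). In KO mice it was 11.7 ± 3.91 (n = 4, without library 1) and 20.9 ± 6.21 (n = 5, SD in each case). After re-separation it was 20.9 ± 7.00 in KO and 28.0 ± 2.95 in WT mice (n = 5). On both scales the co-housed mean lay above the weaning mean in each genotype. Between co-housed and re-separated mice the order of the means changed with the scale, by less than 1 SD.

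Most variants present at weaning were seen in 1 genotype. Of the 33 found then, 8 had reads in both genotypes (24.2%), 12 in KO libraries and 13 in WT libraries alone, while 36.5% of all 337 bacterial variants present were in both. After co-housing 43 of 57 were in both (75.4%, against 63.7% of all 432), with 3 in KO and 11 in WT libraries alone. Among the other variants of the re-separation set, 44 of 55 were in both (80%, against 68.9% of all 466). Without libraries 1, 5, 11 and 19 the shares were 25.0% and 76.8%, and with all libraries thinned to 10491 reads they were 24.2% and 75.4%. Thinning did not even out the reads of the family itself. Before thinning these ran from 16 to 867 per KO and 54 to 582 per WT library at weaning. After co-housing they ran from 676 to 1673 and from 398 to 3467. Sharing at an equal number of family reads was not computed. Whether the family differs from other bacteria in the share found in both genotypes was not tested.

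**Figure D4:**
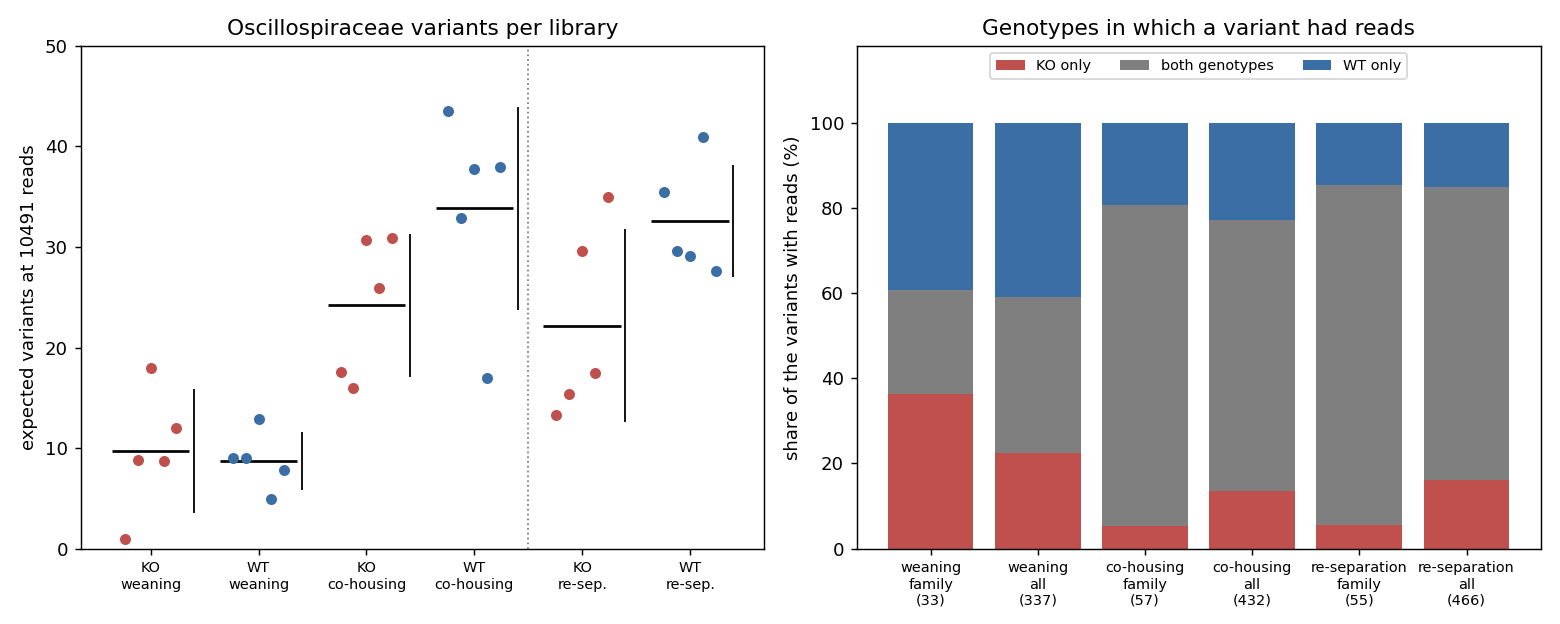
Left, expected number of Oscillospiraceae variants at 10491 reads per library, with group means and 1 SD either side (n = 5), red for KO and blue for WT; the dotted line parts the library sets. Right, share (%) of variants with reads that were found in KO libraries alone, WT libraries alone or both genotypes. Bars are for the family and for all bacteria, with the number of variants in brackets. The family's share in both genotypes was 24.2% at weaning and 75.4% in co-housed mice. The 80% in re-separated mice is of other variants in another library set, so it is not a further step of the same measure.

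A group of 25 of the 58 variants (43.1%) was absent from all 10 weaning libraries, as were 146 of all 483 bacterial variants (30.2%). Of these 25, 15 had reads in both genotypes after co-housing, and 9 in at least 5 of the 10 co-housed libraries. Of the 146, 54 and 23 did so. Whether the family differs from other bacteria here was not tested. Oscillibacter row 484 was in 9 of them, at 0.126%, 0%, 0.0535%, 0.116% and 0.139% in KO libraries 11 to 15 and 0.231%, 0.211%, 0.187%, 0.0982% and 0.197% in WT libraries 16 to 20. In KO mice it was at least 5.55-fold above the weaning floor (edgeR, adjusted p = 0.0225) and at least 4.71-fold without library 15. Row 484 was listed for its 0 reads at weaning, so it could only be higher afterwards, and this p-value adds no support. Uncultured row 487 was in 7, with up to 0.418% in library 17.

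Between weaning and co-housing 11 of the 45 tested variants rose in KO mice, in a comparison that called 79 of 292 (27.1%). The 11 had 0 reads in the 5 KO weaning libraries and passed the filter through other groups. Their estimates could not be below 0, so the shared direction adds no support. They were NK4A214_group row 192, Colidextribacter row 434, Oscillibacter row 484, Oscillospira row 475, the variant with no genus of row 476, and the uncultured variants of rows 456, 461, 481, 487, 492 and 494. Their bounds ran from at least 1.79-fold for row 192 to at least 7.54-fold for row 434, and adjusted p-values of edgeR from 0.0164 to 0.0485. Row 434 had reads in libraries 14 and 15 alone, at 0.464% and 0.126%, and was at least 2.02-fold above the floor without library 14.

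Without libraries 1, 5, 11 and 19, 0 of these 11 passed with edgeR, though all 11 were tested, and 13 of 44 members had an unadjusted p under 0.05. Leaving out a single KO weaning library left 3 to 4 calls, against 5 without library 14 and 6 without library 15. The median log2 change of the 45 was 5.04 as fitted and 0.79 at the bounds, beside 1.24 and 0.35 over all 292.

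In WT mice 0 of the 45 passed by edgeR, though 26 had an unadjusted p under 0.05, each with a higher level after co-housing. Over all variants 2 of 292 passed (0.685%) and 96 had an unadjusted p under 0.05. The lowest adjusted p among members was 0.0671. Row 446, with no genus label, had 0 reads in WT libraries at weaning and 0.373%, 0%, 0.121%, 0.0687% and 0.110% after co-housing. The count was 5 with the DESeq2 test, 17 with limma-voom, 8 with only the 2 groups in the fit, 3 without library 19 and 4 without libraries 1, 5, 11 and 19. The median change of the 45 was 5.23 as fitted and 2.44 at the bounds, beside 1.84 and 1.07 over all 292, and all 45 estimates were above 0. Many of the 45 had 0 reads in all 5 WT weaning libraries and passed the filter through other groups. Their estimates could not be below 0, so the shared direction and the fitted median are partly set by the filter.

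The change in KO mice minus that in WT mice passed for 0 of the 45, where 18 of 292 passed (6.16%) and 11 members had an unadjusted p under 0.05 by edgeR. The call in KO and its absence in WT mice are therefore not shown to differ for any variant.

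At weaning 7 of the 45 separated the genotypes, 4 higher in KO and 3 higher in WT, where 61 of 292 variants were called (20.9%). Each had 0 reads in the 5 libraries of the other genotype. Oscillibacter row 470 held 0%, 0.0587%, 0.388%, 0.0906% and 0.267% in KO libraries 1 to 5, at least 13.3-fold above the WT floor (edgeR, adjusted p = 0.0312) and at least 8.61-fold without library 3. Uncultured row 457 held 0.150%, 0.147% and 0.162% in libraries 2, 3 and 5, at least 7.59-fold (adjusted p = 0.0324) and at least 6.13-fold without library 5. The variants with no genus of rows 446 and 447 had reads in libraries 3 and 5 alone, which held 0.135% and 0.467% of row 446 and 0.305% and 0.448% of row 447.

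Those higher in WT were lower in level. Uncultured row 492 held 0.106%, 0%, 0.0573%, 0.0297% and 0.0212% in libraries 6 to 10, at least 2.74-fold above the KO floor (adjusted p = 0.0241) and at least 1.73-fold without library 6. Uncultured row 461 held 0.102%, 0.128% and 0.0821% in libraries 6, 7 and 8, at least 3.99-fold (adjusted p = 0.0254) and at least 2.94-fold without library 7. NK4A214_group row 192 held 0.0553%, 0.0766% and 0.0297% in libraries 6, 7 and 9, at least 2.06-fold (adjusted p = 0.0433) and at least 1.36-fold without library 7. The count of 7 fell to 0 without libraries 1, 5, 11 and 19 and without library 3 alone, where 15 and 13 of 44 members had an unadjusted p under 0.05 by edgeR. It was 2 without library 6, 4 without library 7, and 3 without library 5, 8 or 9.

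A stricter rule of presence at weaning was met by 6 variants, which had reads in at least 3 of 5 libraries of a genotype and in none of the other. In KO mice these were Oscillibacter row 470 and uncultured rows 457 and 490, and in WT mice NK4A214_group row 192 and uncultured rows 461 and 492. That is 3 of 58 (5.17%) in each genotype, against 18 (3.73%) in KO and 37 (7.66%) in WT mice of all 483. After co-housing all 6 had reads in both genotypes, as did 13 of 18 and 32 of 37 variants under the same rule over all bacteria. Rows 470, 457 and 490, restricted to KO at weaning, were then in 2 co-housed WT libraries each, at up to 0.163%, 0.101% and 0.105%. Rows 192 and 492, restricted to WT, were in 3 co-housed KO libraries and row 461 in 2, at up to 0.0676%, 0.251% and 0.236%. All 6 were picked for 0 reads in the other genotype at weaning, so reads there could only be gained. Libraries also held fewer family reads at weaning, 16 to 867 against 398 to 3467 after co-housing. Passage between the genotypes was not tested. Row 490 held 0.0205%, 0.253%, 0.0272% and 0.0763% in KO libraries 2 to 5 and did not pass at weaning (estimate 6.98 ± 2.64, adjusted p = 0.0527).

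After co-housing 3 of 58 variants met the rule in WT mice (5.17%) and 0 in KO mice, against 18 and 4 of all 483 (3.73% and 0.828%). They were Colidextribacter row 440, at 0.109%, 0.197% and 0.287% in libraries 16, 18 and 20, Oscillibacter row 471, at 0.493%, 0.0933% and 0.276% in libraries 17, 19 and 20, and the variant with no genus of row 510, at 0.981%, 0.108% and 0.328% in libraries 17, 18 and 20. None passed between the genotypes then (edgeR, adjusted p = 0.119 each). These were the 3 members with an unadjusted p under 0.05, and 0 of 45 passed in a comparison that called 3 of 292 (1.03%). Rows 471 and 510 had reads in 1 WT library each at weaning, libraries 9 and 8.

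After re-separation the family had 55 variants, of which 38 passed the filter and 8 had reads in all 10 libraries. The 10 with the largest mean shares held 54.4% of family reads. Colidextribacter rows 1539, 1549 and 1537 led, with 11.4%, 8.17% and 7.34%. Row 1549 held 0.0763%, 0.106%, 0.0601%, 0.0771% and 0.187% in KO libraries 21 to 25 and 0.183%, 0.190%, 0.190%, 0.212% and 0.189% in WT libraries, where 4 KO libraries lay below the WT range. Oscillibacter rows 1617, 1637 and 1616, NK4A214_group row 926 and uncultured rows 1648, 1653 and 1585 made up the rest of the 10. Row 1616 had reads in 1 KO library, library 25 at 0.100%, and in 4 WT libraries at 0.0734% to 0.224%.

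None of the 38 separated the genotypes after re-separation by edgeR, where 4 of 278 variants passed (1.44%), and 1 member had an unadjusted p under 0.05. The median log2 difference of KO minus WT was -0.89 over the 38 and -0.35 over all 278. Without library 25, 3 of the 38 passed. The rule of presence was met by 1 of 55 variants in WT mice (1.82%), Colidextribacter row 1542, in 4 of 5 libraries at up to 0.0394%, and by 0 in KO mice. Over all 466 bacterial variants it was met by 10 in WT mice (2.15%) and 9 in KO mice (1.93%).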

How the data were processed

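Stool DNA of 30 libraries was amplified over V4, a stretch of the 16S rRNA gene, and sequenced as paired ends, per the labels' protocols. The deposited table gave raw read counts per sequence variant, 3697 in all, of which 953 had reads. How variants were called and named is not given in the sources used here, beyond R 4.5.1 and limma in the submitters' processing notes. The 4 mitochondrial variants were left out of all shares and tests. PCR reads are not independent molecules, so the floor covers counting error only. Reads summed by family (35 tested), by genus label (76) and by variant (292 and 278) were tested with edgeR 4.0.16 in R 4.3.3 (quasi-likelihood test, TMMwsp factors, 1 coefficient per group), keeping features with 10 reads in 3 libraries. P-values were adjusted by Benjamini-Hochberg over all features, at a threshold of 0.05, and fold changes are on the log2 scale, KO minus WT or later minus earlier. The SE of an edgeR estimate is the estimate's absolute value over the square root of its F statistic. Where all libraries of a group were at 0, this SE is no measure of precision. The bound given there is the other group's mean share over the mean share of 3 counts per library. The edgeR step was tested on simulated data. Alternatives used DESeq2 1.42.0, limma 3.58.1 and other filters and libraries. All genera were named, and variants that passed a test, ranked in the first 10 by mean share or met the rule of presence. The members and lists were chosen with earlier results of these data known.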

Additional observations from a re-analysis of the deposited data

Results flagged for a closer look

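The family and its 8 genera gave 48 sets of 5 libraries with any reads, of which 9 had a library whose gap to its nearest neighbour exceeded Dixon's 95% value of 0.71 of the range. Chance marks about 1 in 20 groups, and the taxa share libraries. Library 29 (WT after re-separation) held 3.39% of the family against at most 2.09% in the other 4, 0.884% of uncultured variants against at most 0.453%, and 1.21% of Colidextribacter against at most 0.801%. Library 25 (KO after re-separation) held 1.01% of Colidextribacter against at most 0.468%, and 0.192% of Intestinimonas against at most 0.0588%. Library 12 (KO after co-housing) held 7.14% of uncultured variants against at most 2.24%. Library 15 (KO after co-housing) was the only library of its group with reads of Intestinimonas (0.107%) and UCG-005 (0.0713%), and library 8 was the only WT weaning library with variants lacking a genus label (0.143%).

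The change in KO mice minus that in WT mice passed the test for NK4A214_group, at 6.38 on the log2 scale from weaning to co-housing and 7.20 from weaning to re-separation. Mitochondrial reads, outside the bacterial comparisons, reached 0.829% in library 18 (WT after co-housing), above the 0% to 0.0649% of WT libraries at weaning.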

How the results depend on the processing

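The rise of the family in WT mice from weaning to co-housing passed under all 21 alternatives, at 2.24 to 3.34 on the log2 scale, and at 2.24 to 2.84 with 1 library left out. The KO estimate for the same step passed with the DESeq2 test (1.40), limma-voom (1.81) and centred log-ratios (2.11). From co-housing to re-separation the KO estimate passed by library size (-1.94), with DESeq2 size factors (-1.87), the DESeq2 test (-1.87), centred log-ratios (-2.27), thinning (-1.84), the contrast's groups alone (-1.74) and without libraries 1, 5, 11 and 19 (-1.51). The WT estimate passed under the last 2 of these (-1.51 and -1.74). The KO estimate from weaning to re-separation turned to 0.49 with limma-voom (-0.48 to 0.38 with 1 library left out). The interaction from co-housing to re-separation turned to -0.20, -0.54, -0.54, -0.0047, -0.66 and -0.16 by library size, DESeq2 size factors, DESeq2 test, limma-voom, centred log-ratios and thinning (-0.20 to 0.53 with 1 library left out). None of these passed a test. With 1 library left out the other family estimates ran from 0.13 to 0.92, -1.12 to -0.39 and -0.96 to -0.42 (KO minus WT at the 3 times), from 0.87 to 1.71, -1.70 to -0.98 and -1.75 to -1.13 (the steps named above), from 0.91 to 1.33 (WT, weaning to re-separation), and from -1.74 to -0.89 and -1.61 to -0.72 (the other interactions).

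Counts of genera called moved as follows. At weaning the 2 became 1 with centred log-ratios, and 0 with the contrast's groups alone, where neither was tested (2 to 3 with 1 library left out), and after co-housing the 0 became 1 with limma-voom (0 to 2). From weaning to co-housing the 4 in KO mice became 2 with DESeq2 size factors, the DESeq2 test, thinning or the library set alone, and 1 with centred log-ratios or the contrast's groups alone, where 2 of the 4 were tested (2 to 5). The 5 in WT mice became 3 with DESeq2 size factors or the library set alone and 1 with centred log-ratios (4 to 5). From co-housing to re-separation the 1 in KO mice became 2 with limma-voom and 0 with centred log-ratios (0 to 3), and the 0 in WT mice became 1 with the contrast's groups alone or without libraries 1, 5, 11 and 19. From weaning to re-separation the 1 in WT mice became 0 with the DESeq2 test or a filter of 50 reads, where it was not tested (0 to 1), and the 3 in KO mice ran from 2 to 3. The interaction from weaning to co-housing became 0 by library size, limma-voom, centred log-ratios, no filter, thinning, the contrast's groups or library set alone, without the 4 libraries, or with uncultured and unnamed variants merged (0 to 2). That to re-separation became 0 with centred log-ratios (1 to 2), and with limma-voom the NK4A214_group call was lost to an adjusted p of 0.170.

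Of the 7 variants called at weaning, limma-voom called 2, centred log-ratios 1, the contrast's groups alone 3 of the 3 it tested, and the fit without the 4 libraries 0 (0 to 6 with 1 library left out). For KO mice from weaning to co-housing the 11 became 7 with DESeq2 size factors, the DESeq2 test or the contrast's groups alone, 4 with limma-voom, 1 with centred log-ratios, 5 without a filter, 6 with 50 reads and 0 without the 4 libraries (3 to 12). Of the 11, the contrast's groups alone tested 7 and the filter of 50 reads 6, and these kept their calls. For WT mice the 0 became 5 with the DESeq2 test, 17 with limma-voom, 4 with centred log-ratios or without the 4 libraries, 1 with 50 reads or thinning, and 8 with the contrast's groups alone (0 to 3). After co-housing limma-voom called 1, and the interaction ran from 0 to 1 with 1 library left out. After re-separation the DESeq2 test and centred log-ratios called 1 each and limma-voom 3 (0 to 3). Under presence in 2 of 5 libraries the counts were 6 (KO, weaning), 5 (WT, co-housing), 1 and 4 (KO and WT, re-separation). With 4 of 5 libraries they were 1 (WT, weaning) and 0 (WT, co-housing), and with at least 10 reads 1 (WT, weaning). Apart from features not tested, the cause was not tested.

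Of the genera and variants called, 228 of 343 refits kept the call and 115 lost it, and with 1 library left out 255 of 380 kept it. None turned its direction. For every variant called and for the rare genus labels, however, a group of the comparison had no reads in any library. The unchanged direction of these calls was largely set by that absence and adds no support. A test on shares of family reads was not run. No paired analysis was possible because the labels do not link libraries of the same mouse. In the shallow weaning libraries the floor of 3 reads lies close to the shares of the rare labels, so depth limits statements on them.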
